A study of Mus musculus with 6 samples.

Results

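The midbrain-hindbrain boundary genes are a set of 10 genes, *En1*, *En2*, *Pax2*, *Pax3*, *Pax5*, *Pax7*, *Pax8*, *Gbx2*, *Fgf8* and *Cnpy1*, known for patterning the embryonic midbrain and anterior hindbrain. They were taken by gene name from the 34632 loci of the deposited assembly, and for *Gbx2*, the only name of the set on several loci, the locus with the most fragments was kept. Their expression was measured by RNA-Seq in the brainstem of P21 mice, in 3 *Hoxa5* control and 3 *Hoxa5* cKO libraries (groups as labelled), with RNA of 3 brainstems in each pool. All animals carried *Hoxa5* flox/flox alleles and received tamoxifen from day 1 to day 4 after birth. The control animals (Hoxa5flox/flox;CMV-CreERT2-/-) lacked the Cre transgene that their cKO littermates (Hoxa5flox/flox;CMV-CreERT2+/-) carried, so effects of Cre itself and of the loss of *Hoxa5* cannot be told apart. The CMV promoter drives this tamoxifen-dependent Cre broadly, so the inactivation was not aimed at a cell type. Of the 10 genes, 9 were tested among the 21854 loci that passed a filter on low counts, and *Fgf8* had no fragment in any library.

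The opposed transcription factors Otx2, in front, and Gbx2, behind, place the boundary in the neural tube, and the isthmic organizer that forms there releases FGF8. The Engrailed proteins En1 and En2 and the paired-box proteins Pax2, Pax5 and Pax8 belong to the same network, and together these factors direct the growth of the midbrain and the cerebellum. After birth several of the genes stay on in particular neurons: *En1* and *En2* in midbrain dopamine neurons, *En2* in cerebellar granule neurons, and *Pax7* in the dorsal midbrain. *Cnpy1* (canopy 1) encodes a protein of the secretory pathway that in the zebrafish promotes FGF signalling at the boundary.

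*Cnpy1* showed the largest change of the set, and most of its assembled transcripts began well inside the gene, so the sequence at that start is shown. The locus spans chr5:28200715-28237873 of mm10 on the minus strand and holds 4 assembled transcripts. The first exons of 3 of them begin within a single RefSeq promoter window (GRCm38.p6, the same build), chr5:28210119-28210418, at 45, 206 and 227 bases upstream of the RefSeq start at position 28210168. The fourth, a RefSeq transcript, begins at position 28237873, and the other RefSeq window of the gene (chr5:28245739-28246038) held 0 of the 4 ends. In the sequence, read 5′ to 3′ on the minus strand, capitals mark the only match to any of 3 motifs searched on both strands. These were the homeodomain core TAATTA, its variant with a final G (TAATTG), and the longer TGATTNAT, a form bound by Hox and Pbx proteins together. The match begins 77 bases upstream of the RefSeq start.
Cnpy1 window: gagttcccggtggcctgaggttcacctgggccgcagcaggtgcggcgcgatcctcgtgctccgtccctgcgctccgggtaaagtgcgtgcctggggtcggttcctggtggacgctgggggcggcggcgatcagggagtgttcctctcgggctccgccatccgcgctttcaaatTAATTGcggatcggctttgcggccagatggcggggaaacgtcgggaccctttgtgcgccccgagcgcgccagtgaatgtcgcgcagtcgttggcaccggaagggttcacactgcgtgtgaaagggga
The motif in capitals, TAATTG, was found in 8.0% of the 32851 RefSeq promoter windows of this length, the core TAATTA in 5.29% and the longer motif in 3.22%. The match is a description of these letters only, and whether it is bound was not tested. RefSeq windows were matched for 7 of the 10 genes.

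The locus of the inactivated gene was read first, as a check of the labels. The *Hoxa5* locus (chr6:52201754-52211868, merged in the assembly with *Hoxa6* and *2700086A05Rik*) held 202, 337 and 77 fragments in control replicates 1 to 3 and 279, 57 and 63 in cKO replicates 1 to 3. These fragments are of the 3 genes together and stood at 22.4 to 38.6 per unit of FPKM over the libraries. The locus is therefore a limited check, and the level of *Hoxa5* alone was not read. Control replicate 3 lay with the low cKO libraries and cKO replicate 1 with the high controls, against their labels, and the log2 fold change was -0.62 (SE 0.48, edgeR adjusted p = 0.893). Directions below are therefore between libraries labelled control and libraries labelled cKO, and the main values are also given without these 2 libraries. The 6 libraries held 12034613 to 13202707 fragments. Of the listed brainstem markers all 6 were tested and none was called, with a summed level of 247 to 290 CPM (counts scaled to a common library size, by TMM) in controls and 247 to 324 in cKO. *Slc6a5* made up most of this sum, at 201 to 238 CPM in controls and 200 to 270 in cKO. Transcripts known as markers of cerebellar neurons were also present, and their source was not tested: those of granule neurons summed to 278 to 538 CPM in controls and 103 to 134 in cKO, and those of Purkinje cells to 94.5 to 164 and 42.9 to 50.6. Forebrain markers were low, at 4.29 to 4.90 and 3.98 to 5.51 CPM. Pools are the only replicates, so the p-values measure the spread between 3 pools of each label, and in bulk tissue fewer cells of a type and less RNA per cell cannot be told apart.

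Of the 9 genes tested, *Cnpy1* and *En2* were lower in cKO, none was higher and 7 did not pass the test (edgeR quasi-likelihood test, Benjamini-Hochberg adjusted p from 0.834 to 0.993 for those 7). Over all loci tested, 0.503% were called lower (110 loci) and 0.0275% higher (6 loci). The 110 fell to 42 without control replicate 1 and to 64 without cKO replicate 3. *Cnpy1* and *En2* were also the only genes of the set with an unadjusted p under 0.05. The median log2 fold change of the 9 genes was 0.10, beside 0.0034 for all loci tested, with 3 genes below 0 and 6 above. DESeq2 likewise called 2 of the genes lower and none higher, beside 0.365% and 0.0097% of its loci. With limma on log2(FPKM + 1) neither fall was called (limma adjusted p = 0.318 for *Cnpy1* and 0.358 for *En2*), nor was any other locus.

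**Figure D1:**
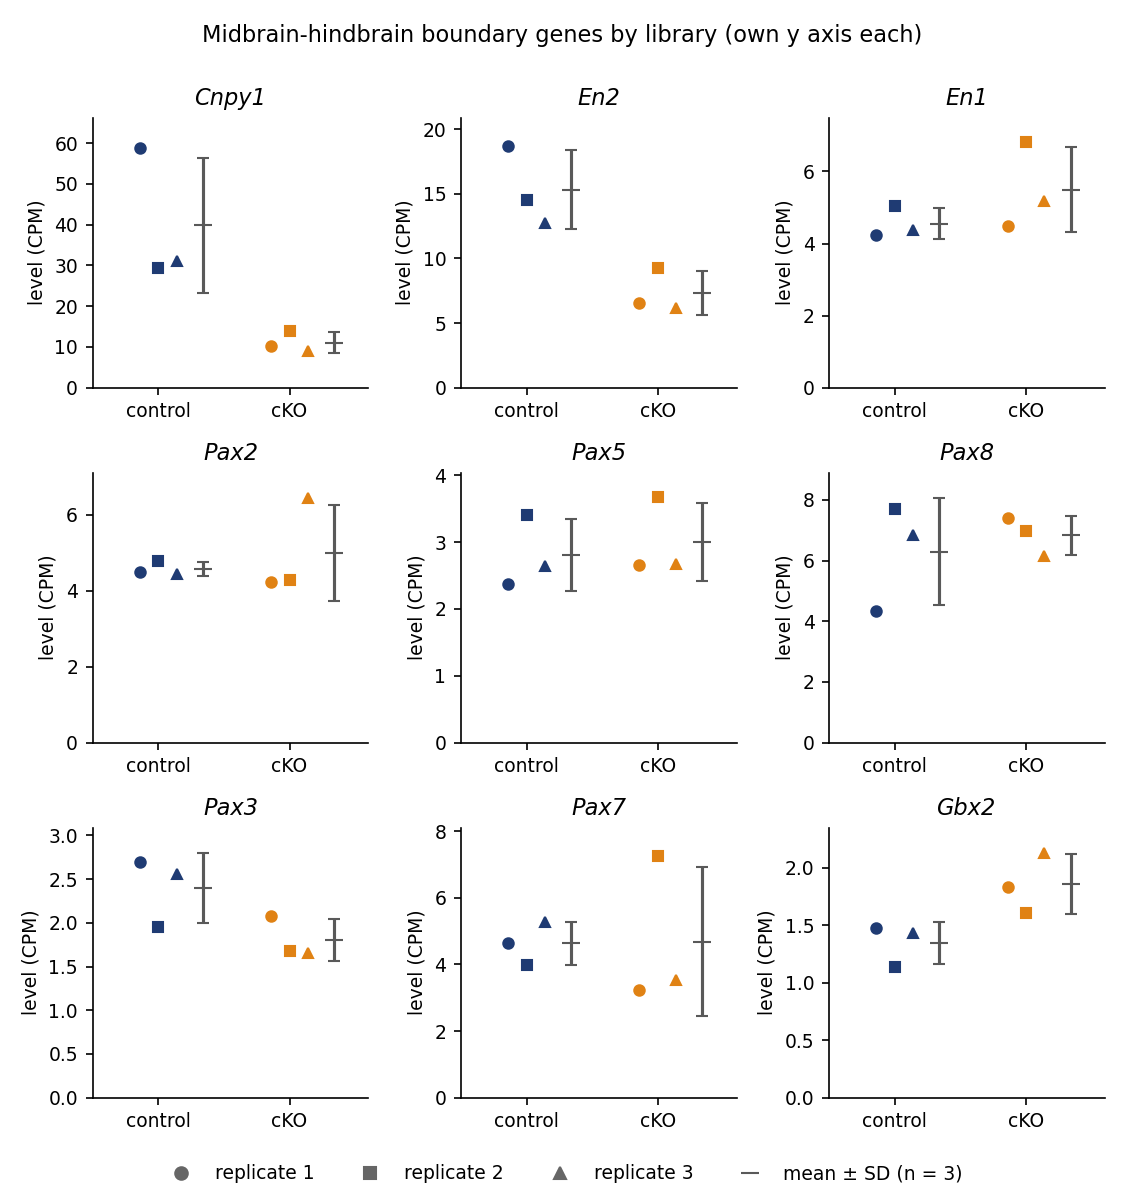
Level in CPM (y axis, own scale for each gene) of the 9 detected boundary genes in the libraries labelled control (blue) and cKO (orange), with replicates by symbol and the mean ± SD of 3 libraries in grey. For *Cnpy1* and *En2* every cKO library lies below every control library, for *Gbx2* every cKO library lies above, and the groups overlap for the other 6 genes.

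*Cnpy1* fell the most. It held 721, 363 and 414 fragments in the control libraries and 124, 181 and 114 in the cKO libraries, so that the highest cKO library had fewer fragments than the lowest control library. The levels were 58.9, 29.5 and 31.2 CPM in controls and 10.3, 13.8 and 8.97 CPM in cKO, with means of 39.8 ± 16.5 and 11.05 ± 2.52 CPM (SD, n = 3). The groups did not overlap, but control replicate 1 stood far above the other 2 controls. The log2 fold change was -1.84 (SE 0.22, 95% interval -2.31 to -1.38, edgeR adjusted p = 5.36e-04), or 0.279 of the control level. Of the 110 loci called lower it was the 10th by size of change. Without control replicate 1 the log2 fold change was -1.45. Without control replicate 3 and cKO replicate 1, whose level of the merged *Hoxa5* locus went against their labels, it was -1.95 (edgeR adjusted p = 1.21e-04).

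*En2*, which encodes a homeodomain repressor, fell less. Its locus (chr5:28165696-28172166, plus strand, 1 assembled transcript) held 229, 179 and 169 fragments in controls and 79, 121 and 78 in cKO. These correspond to 18.7, 14.5 and 12.7 CPM in controls and 6.57, 9.26 and 6.14 CPM in cKO, and the groups again did not overlap. The mean level went from 15.3 ± 3.06 to 7.32 ± 1.69 CPM (SD, n = 3). The log2 fold change was -1.06 (SE 0.16, 95% interval -1.40 to -0.72, edgeR adjusted p = 0.00338), or 0.481 of the control level, the 26th largest fall of the 110. Control replicate 1 was the highest of the controls and cKO replicate 2 the highest of the cKO libraries for both genes. Without control replicate 3 and cKO replicate 1 the log2 fold change was -1.11 (edgeR adjusted p = 0.00182).

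*En1*, the paralog of *En2*, did not pass the test. Its locus (chr1:120602487-120607991) held 52, 62 and 58 fragments in controls and 54, 89 and 66 in cKO, with cKO replicate 2 the highest and the groups overlapping. The means were 4.55 ± 0.423 and 5.50 ± 1.19 CPM (SD, n = 3), and the log2 fold change was 0.28 (SE 0.18, 95% interval -0.09 to 0.65, edgeR adjusted p = 0.855). The 2 intervals of *En1* and *En2* therefore share no value. The ratio of *En2* to *En1* fragments within a library, which does not depend on depth, was 4.37, 2.87 and 2.90 in controls and 1.46, 1.36 and 1.18 in cKO. All 3 cKO ratios lay below all 3 control ratios. The mean log2 ratio differed by -1.32, from 1.73 ± 0.35 to 0.41 ± 0.16 (SD, n = 3). A two-sided exact permutation test gave p = 0.1, the smallest that 20 arrangements of 3 against 3 libraries allow, and p = 0.1 after adjustment over the 2 ratios tested.

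*Cnpy1* and *En2* are neighbours, 28.5 kb apart and transcribed from opposite strands. The ratio of *Cnpy1* to *En2* fragments was 3.14, 2.03 and 2.45 in controls and 1.57, 1.49 and 1.46 in cKO, again without overlap. The mean log2 ratio went from 1.32 ± 0.32 to 0.59 ± 0.05 (SD, n = 3), a difference of -0.73 (p = 0.1 by the same exact test, again its smallest value). The cKO ratios spanned 1.46 to 1.57, a narrower range than the 2.03 to 3.14 of the controls.

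The other named loci within 250 kb did not pass the test. *Insig1*, a regulator of sterol synthesis 85.8 kb from *En2*, held 1856, 2026 and 2060 fragments in controls and 2128, 1975 and 2029 in cKO, with a log2 fold change of 0.05 (SE 0.06). *Rbm33*, an RNA-binding protein gene 79.3 kb beyond *Cnpy1*, held 1125, 1094 and 1223 in controls and 1000, 1180 and 1155 in cKO, with a log2 fold change of -0.04 (SE 0.05). For both genes the groups overlapped, and the narrow errors leave changes of the size of *En2* outside their 95% intervals (-0.07 to 0.17 for *Insig1* and -0.16 to 0.07 for *Rbm33*). *Shh*, which encodes the secreted signal of the ventral midline, lay 219 kb from *Cnpy1* and held 35, 40 and 37 fragments in controls and 36, 39 and 36 in cKO. Its log2 fold change was -0.01 (SE 0.20). The locus *9530036O11Rik*, 229.1 kb away, held 7, 5 and 9 fragments in controls and 11, 17 and 15 in cKO, a log2 fold change of 1.02 (SE 0.39) at an edgeR adjusted p of 0.559.

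**Figure D2:**
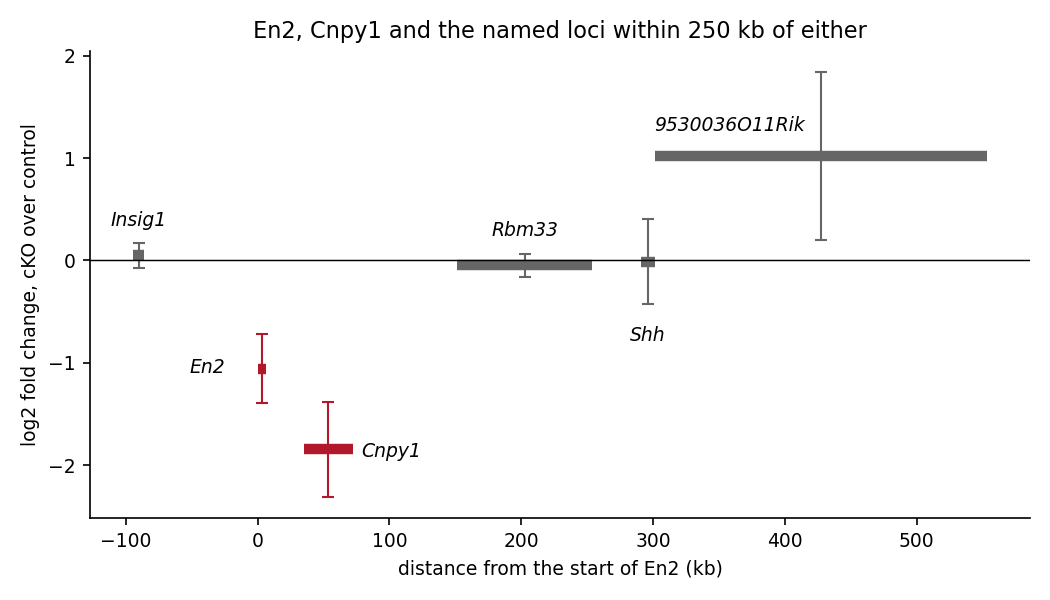
Log2 fold change (y axis, labelled cKO over labelled control, with 95% intervals) of the named loci within 250 kb of *En2* or *Cnpy1*, placed by distance from the start of *En2* in kb (x axis), the length of each bar being that of the locus. *En2* at -1.06 and *Cnpy1* at -1.84 (red) are the 2 loci called, and *Insig1*, *Rbm33* and *Shh* lie between -0.04 and 0.05.

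The fall of both genes went with that of several markers of cerebellar neurons. Of the granule neuron list (*Gabra6*, *Cbln3*, *Neurod1*, *Fat2*, *Barhl1* and *Crtam*) 4 of 6 were called lower, with a median log2 fold change of -1.86, and of the Purkinje list (*Pcp2*, *Ppp1r17*, *Slc1a6*, *Skor2*, *Casq2* and *Car8*) 4 of 6, with a median of -1.17. The members not called were *Crtam*, *Barhl1*, *Skor2* and *Casq2*, and no gene of either list was at 0. Granule and Purkinje lists were the only ones of 9 marker lists with a called gene, by edgeR and by DESeq2, which called 5 and 4 of them lower. Cerebellar interneuron markers summed to 50.5 to 59.1 CPM in controls and 45.5 to 53.2 in cKO (0 of 3 called), and unipolar brush cell markers to 4.71 to 5.64 and 4.09 to 4.51 (0 of 2 called, 1 lower at an unadjusted p under 0.05). *Cnpy1* amounted to 10.95%, 8.36% and 11.2% of the summed CPM of the granule list in controls and to 10.04%, 10.3% and 8.03% in cKO, so relative to this list the groups overlapped. Relative to the Purkinje list *Cnpy1* amounted to 31.2% to 35.9% in controls and to 19.6% to 27.3% in cKO, without overlap. For *En2* it was the other way round. *En2* amounted to 3.48% to 4.58% of the granule list in controls and to 5.50% to 6.92% in cKO, higher in every cKO library, and to 11.4% to 15.4% and 13.4% to 18.3% of the Purkinje list, where the groups overlapped. Both comparisons depend on the members of the lists. *Fat2* made up most of the granule sum in every library, at 145 to 279 CPM in controls and 57.3 to 73.9 in cKO. Its log2 fold change of -1.64 was a smaller fall than those of *Gabra6*, *Cbln3*, *Neurod1* and *Crtam*, and a larger one than that of *Barhl1*. The percentages of the granule list are therefore largely ratios to *Fat2*. In the Purkinje list *Car8* had the highest CPM in every library. Log2 fold changes were -1.88 for *Ppp1r17*, -1.81 for *Pcp2* and -1.64 for *Car8*, beside -1.84 for *Cnpy1*. They were -0.70 for *Slc1a6*, -0.24 for *Casq2* and 0.08 for *Skor2*. The part of the cerebellar markers in the result of *Cnpy1* or of *En2* was not tested.

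**Figure D3:**
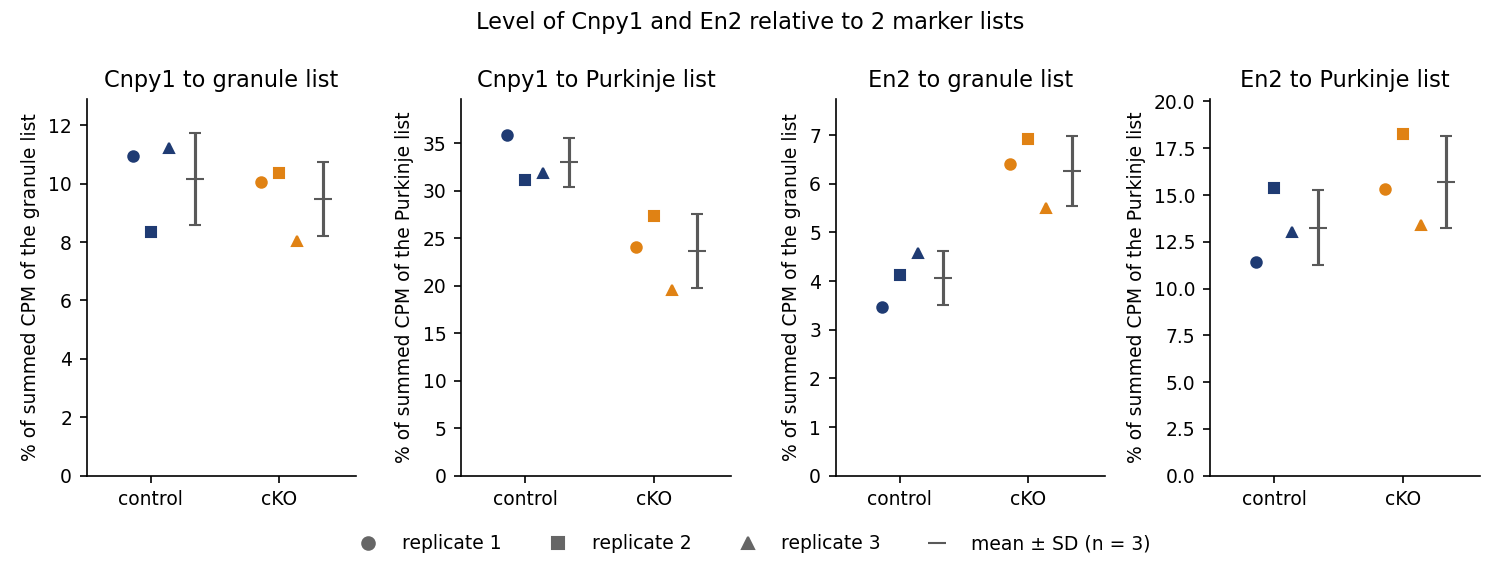
Level of *Cnpy1* and *En2* as a percentage of the summed CPM of the granule neuron and Purkinje cell marker lists (y axis, own scale for each panel) in each library labelled control (blue) and cKO (orange), with the mean ± SD of 3 libraries in grey. The groups overlap for *Cnpy1* relative to the granule list and for *En2* relative to the Purkinje list, and part in the other 2 panels.

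The 5 loci most like *Cnpy1* over the 6 libraries and the 5 most like *En2* were also read. Likeness was the root mean square difference of log2 CPM centred over the 6 libraries, among 14403 loci with a single name and a mean of at least 1 CPM. It takes in the difference between the labels and its size. *Cnpy1* and *En2* lay 0.410 apart by this measure, so lists as close to each as those below could not share a locus. Closest to *Cnpy1* were *Ppp1r17* (0.106), *Gabrd* (0.115), *Gabra6* (0.136), *Pcp2* (0.145) and *Cbln3* (0.163). *Ppp1r17* and *Pcp2* are genes of the Purkinje list, and *Gabra6* and *Cbln3* of the granule list. *Gabra6* and *Gabrd* encode GABA-A receptor subunits and *Cbln3* a cerebellin. *En2* stood at rank 18. Closest to *En2* were *Serinc2* (0.0721), *5830416P10Rik* (0.103), *Gm2694* (0.113), *Itpr1* (0.152), which encodes an intracellular calcium release channel abundant in Purkinje cells, and *Dusp5* (0.166), a phosphatase gene. *Serinc2* held 12 to 34 and *5830416P10Rik* 13 to 43 fragments a library, with a large counting error. Neither was called (edgeR adjusted p = 0.199 and 0.202), whereas *Gm2694*, *Itpr1* and *Dusp5* were called lower. *Cnpy1* stood at rank 228 for *En2*, and *En1* at rank 13080.

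The *Pax2*, *Pax5* and *Pax8* genes encode a subfamily of paired-box factors that act together at the boundary, and none of them passed the test. *Pax2* (chr19:44756807-44837968), later also a gene of inhibitory interneurons, held 55, 59 and 59 fragments in controls and 51, 56 and 82 in cKO. Only cKO replicate 3 lay above the controls. The log2 fold change was 0.13 (SE 0.18, 95% interval -0.26 to 0.51), and -0.10 without cKO replicate 3. The assembled locus begins 10.2 kb inside the RefSeq gene, and the deposited FPKM of *Pax2* did not move in step with its fragments, which stood at 21.4 to 31.0 per unit of FPKM over the libraries, so its FPKM is less certain than that of the other members.

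*Pax5* (chr4:44530271-44710440) was the least abundant of the subfamily, with 29, 42 and 35 fragments in controls and 32, 48 and 34 in cKO. Its log2 fold change was 0.10 (SE 0.22, 95% interval -0.37 to 0.57), and the sign turned without control replicate 1 (-9.3e-04) or cKO replicate 2 (-0.066). *Pax8* (chr2:24420520-24475607), better known from the thyroid and the kidney, held 53, 95 and 91 fragments in controls and 89, 91 and 78 in cKO. Control replicate 1, the library with the most *Cnpy1* and *En2*, held the least *Pax8*. The log2 fold change was 0.11 (SE 0.18, 95% interval -0.26 to 0.49), and -0.091 without that library. For all 3 genes a fall of the size of *En2* lay outside the 95% interval.

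*Pax3* and *Pax7* encode the paired-box factors of the dorsal neural tube. *Pax3* (chr1:78101267-78197136) held 33, 24 and 34 fragments in controls and 25, 22 and 21 in cKO. Control replicate 2 lay among the cKO libraries, so the groups overlapped. The means were 2.40 ± 0.398 and 1.81 ± 0.239 CPM (SD, n = 3), and the log2 fold change was -0.41 (SE 0.25, 95% interval -0.93 to 0.11, edgeR adjusted p = 0.834). This was the third lowest value of the set and the lowest that was not called.

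*Pax7* (chr4:139737063-139832968) varied more within the cKO group than between the groups. It held 57, 49 and 70 fragments in controls and 39, 95 and 45 in cKO, so that cKO libraries were both the lowest and the highest. The means were 4.64 ± 0.647 and 4.68 ± 2.24 CPM (SD, n = 3), with a log2 fold change of 0.02 (SE 0.25, 95% interval -0.50 to 0.54). Without cKO replicate 2 it was -0.45 at an edgeR adjusted p of 0.725 and an unadjusted p of 0.0436. The variance of the depth-scaled *Pax7* fragments was 13.6 times their mean in cKO and 1.16 times in controls, where a value of 1 would be the counting error alone.

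The same library was also the highest for some midbrain markers. These were 3 of the 6 genes of the dopamine neuron list and all 4 of the dorsal midbrain list. It was also highest for 2 of 4 cerebellar interneuron and progenitor markers, 1 of 6 brainstem and 1 of 5 forebrain markers. In the granule, Purkinje, serotonergic and unipolar brush cell lists it was highest for 0 genes. These counts were not set beside a share over all loci. *En1*, *Pax5* and *Pax7* all had their highest level in cKO replicate 2. By CPM the next library was cKO replicate 3 for *En1*, control replicate 2 for *Pax5* and control replicate 3 for *Pax7*. *Slc6a3*, the dopamine transporter gene, held 166, 132 and 368 fragments in controls and 145, 483 and 110 in cKO, and *Th*, which encodes the first enzyme of dopamine synthesis, held 129, 168 and 257 in controls and 168, 292 and 122 in cKO. For both genes the highest library was cKO replicate 2 and the next was control replicate 3, the order also seen for *Pax7*. *Chrna6* (53, 39 and 86 in controls, 31, 105 and 39 in cKO), a nicotinic receptor gene of the same neurons, was alike. The other 3 genes of the list were not highest there: *Nr4a2* held 100, 91 and 69 fragments in controls and 57, 102 and 59 in cKO, *Aldh1a1* held 1641, 1755 and 1863 and then 1870, 1821 and 1669, and *Pitx3* held at most 4 fragments. By CPM their highest libraries were control replicate 1, cKO replicate 1 and control replicate 2. Of the dorsal midbrain list, *Sox14* (24, 15 and 35, then 19, 49 and 34) and *Tcf7l2* (357, 325 and 427, then 243, 484 and 376) were, with *Otx2* and *Pou4f1*, again highest in cKO replicate 2. The dopamine list as a whole, which *Aldh1a1* dominates, summed to 171 to 199 CPM in controls and 157 to 215 in cKO, and the dorsal midbrain list to 44.7 to 50.6 and 35.0 to 59.5, with 0 of 5 and 0 of 4 genes tested called. Their part in the spread of *En1*, *Pax5* and *Pax7* was not tested.

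**Figure D4:**
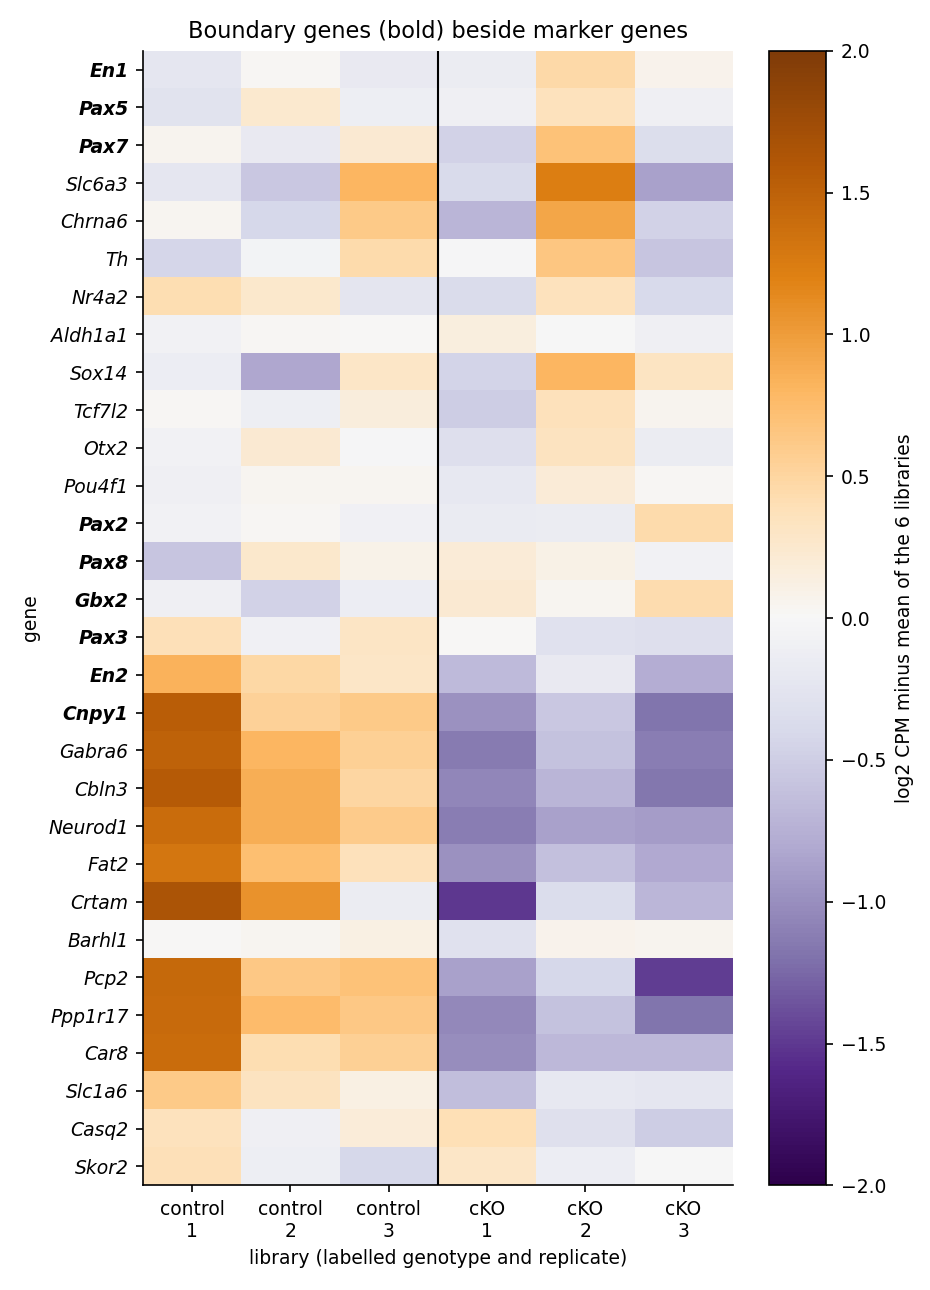
Log2 CPM minus the mean of the 6 libraries (colour scale, orange above and purple below the mean) for the 9 detected boundary genes (bold) and the tested genes of the dopamine neuron, dorsal midbrain, granule neuron and Purkinje lists in each library, the line parting control from cKO. *Pax7* and *En1* are orange in cKO replicate 2 with *Slc6a3*, *Chrna6* and *Th* but not with *Aldh1a1*, and *En2* and *Cnpy1* are orange in the 3 controls with *Gabra6* and *Ppp1r17* but not with *Casq2* or *Skor2*.

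*Gbx2*, the gene of the hindbrain side of the boundary, was the only one of the set with every cKO library above every control library. Its locus (chr1:89927962-89931176) held 18, 14 and 19 fragments in controls and 22, 21 and 27 in cKO. The means were 1.35 ± 0.182 and 1.85 ± 0.260 CPM (SD, n = 3), and the log2 fold change of 0.46 (SE 0.28, 95% interval -0.12 to 1.04) did not pass the test (edgeR adjusted p = 0.842). Groups that parted in this direction were found for 5.61% of all loci tested, and groups that parted in the other direction, as for *En2* and *Cnpy1*, for 6.56%. A second locus named *Gbx2*, on the plus strand at chr1:89931107-89932004, held 14, 3 and 3 fragments in controls and 5, 2 and 2 in cKO and was too low to be tested. At 14 to 27 fragments a library, the interval of *Gbx2* was the widest of the 9 genes.

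*Fgf8* (chr19:45736798-45742884), the signal of the isthmic organizer, held 0 fragments in all 6 libraries. A count of 0 allows up to 3 fragments, or 0.227 to 0.249 CPM in a single library and 0.0397 CPM over the 6 together, and covers counting error only. The transcript was thus below detection at this depth in both groups and no fold change was computed.

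**Figure D5:**
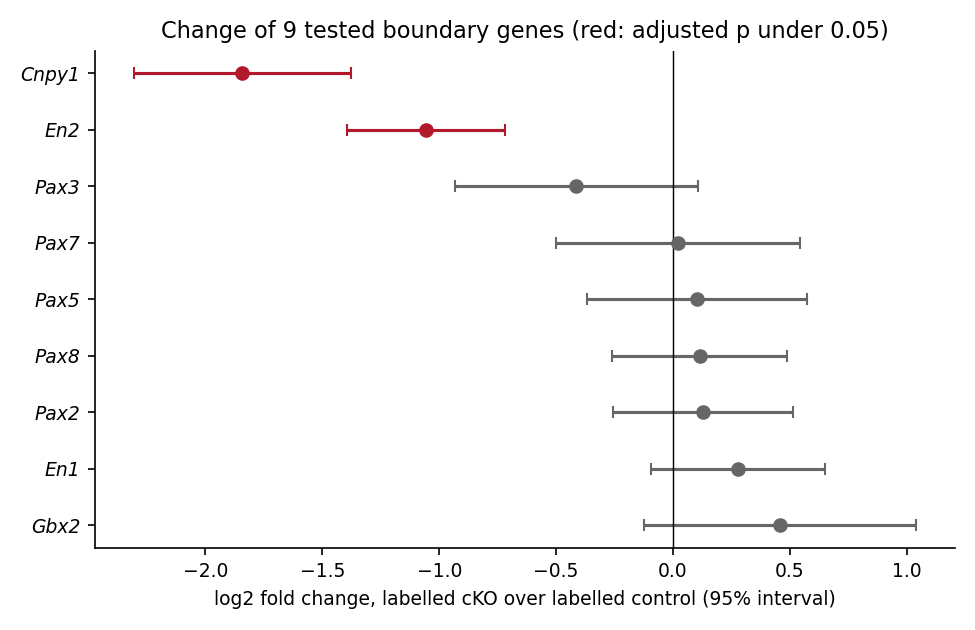
Log2 fold change of labelled cKO over labelled control (x axis) with its 95% interval for the 9 boundary genes tested (y axis), in red where the edgeR adjusted p was under 0.05. The intervals of *Cnpy1* and *En2* lie wholly below 0, and those of the other 7 genes span 0.

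Levels per transcript length were compared by FPKM, the deposited values. In controls *Cnpy1* was the most abundant gene of the set at 12.2 ± 5.01 FPKM (SD, n = 3), followed by *En2* at 6.27 ± 1.24 and *En1* at 3.03 ± 0.487 FPKM. The mean of *Cnpy1* lay above that of 83.31% of all 34632 loci, which include those too low to be tested. *Pax8* (2.31 ± 0.643) and *Pax2* (2.23 ± 0.176) came next. *Pax5* (0.930 ± 0.237), *Pax7* (0.835 ± 0.111), *Gbx2* (0.752 ± 0.0983) and *Pax3* (0.635 ± 0.132) stayed under 1 FPKM on average. Control libraries of *Cnpy1* and *En2*, of *En2* and *En1*, and of *Pax2* and *Pax5* did not overlap. The neighbours *En1* and *Pax8*, *Pax8* and *Pax2*, and the 4 genes from *Pax5* to *Pax3* could not be parted by their spread.

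In cKO the order at the top was different. *En1* had the highest mean level at 3.75 ± 0.837 FPKM, then *Cnpy1* at 3.29 ± 0.743 and *En2* at 2.97 ± 0.667 FPKM (SD, n = 3). The libraries of these 3 genes overlapped, so the top of this order was not resolved. *Pax2* followed at 2.57 ± 1.09 and *Pax8* at 2.54 ± 0.180 FPKM, and this order rests on the FPKM of *Pax2*, which moved apart from its fragments.

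Within the controls the spread of 3 genes rested on control replicate 1. Over all 3 controls the variance of depth-scaled fragments was 84.0 times the mean for *Cnpy1*, 7.34 times for *En2* and 6.35 times for *Pax8*, and between 0.103 and 1.35 times for the other 6 genes. Without control replicate 1, which held the most *Cnpy1* and *En2* and the least *Pax8*, the variance was 0.656, 1.49 and 0.629 times the mean for these 3 genes, so that the 2 remaining controls differed by about the counting error. A ratio from 2 libraries is loosely set, so it does not show that controls vary by counting error alone. In cKO the ratio was 7.38 for *Cnpy1*, 5.00 for *En2* and 0.792 for *Pax8*.

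Other genes of the boundary network were read from lists, and none of their genes was called in either direction by edgeR or by DESeq2. The list of isthmic signalling (FGF and WNT ligands, FGF receptors and FGF feedback genes) had 11 of 13 genes tested, with 0 called, 1 higher at an unadjusted p under 0.05 and a median log2 fold change of 0.05. *Fgfr3*, an FGF receptor gene, had the smallest p of that list, with 2010, 1909 and 2113 fragments in controls and 2173, 2277 and 2406 in cKO, a log2 fold change of 0.19 (SE 0.05) and an edgeR adjusted p of 0.142. *Fgf18*, a ligand related to *Fgf8*, held 31, 27 and 26 fragments in controls and 32, 44 and 38 in cKO, a log2 fold change of 0.44 (SE 0.22). For the FGF-induced ETS factor genes *Etv4* and *Etv5* it was -0.20 (SE 0.11) and -0.13 (SE 0.06). The 2 genes too low to be tested were *Wnt1*, with 4 fragments in all, and *Fgf17*, with 2, 1 and 2 fragments in controls and 3, 11 and 5 in cKO.

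Of the transcription factors of the region 9 of 12 were tested, with 0 called, 2 higher at an unadjusted p under 0.05 and a median log2 fold change of 0.05. *Meis2*, a homeodomain cofactor gene, held 824, 855 and 920 fragments in controls and 926, 1000 and 1010 in cKO, with a log2 fold change of 0.18 (SE 0.05, edgeR adjusted p = 0.252). *Irx2* had 0.17 (SE 0.08). The LIM-homeodomain genes *Lmx1a* and *Lmx1b*, the latter a regulator of the isthmus and of serotonergic neurons, had 0.45 (SE 0.23) and -0.13 (SE 0.13). *Otx2*, the partner of *Gbx2* at the boundary, held 76, 94 and 85 fragments in controls and 63, 108 and 75 in cKO, with a log2 fold change of -0.05 (SE 0.17).

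Relatives of the members were also read. Of the 4 other *Pax* genes only *Pax6*, a gene of granule neuron precursors and granule neurons, was high enough to be tested. It held 153, 164 and 111 fragments in controls and 104, 114 and 102 in cKO, with overlapping groups, a log2 fold change of -0.42 (SE 0.15) and an edgeR adjusted p of 0.484 (unadjusted p = 0.0125). The 3 other canopy genes had log2 fold changes of -0.0038 for *Cnpy2* (SE 0.10), 0.02 for *Cnpy3* (SE 0.07) and 0.01 for *Cnpy4* (SE 0.13), so that a change of the size seen for *Cnpy1* lay outside the error of each of them. *Efna2* and *Efna5*, genes of ephrins that are graded across the midbrain roof under Engrailed in the chick, had -0.23 (SE 0.15) and 0.25 (SE 0.13).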

How the data were processed

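RNA-Seq fragments were measured in 6 libraries of P21 mouse brainstem, 3 for each genotype label. The authors called bases with CASAVA 1.6, aligned to mm10 with TopHat2 2.0.9, assembled with Cufflinks 2.2.0 and quantified with Cuffdiff. They deposited whole fragment counts per locus and FPKM, the latter already scaled across libraries by Cuffdiff. The 2 deposited columns of scaled fragments were not used. Loci were named from the deposited assembly, and the table's replicate numbers, counted here from 1, are names that no source ties to a pool.

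The 21854 loci left by filterByExpr were compared with edgeR 4.0.16 (TMM, quasi-likelihood test) in R 4.3.3, at a Benjamini-Hochberg adjusted p of 0.05. SE is the size of the log2 fold change over the square root of F. CPM use TMM-scaled sizes (prior count of 2 on the log2 scale). Ratios of fragments used 0.5 added fragments and exact permutation in Python 3.11.15. Depth was 12034613 to 13202707 fragments a library, so a gene at 20 fragments is read with a large counting error.

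The alternatives were library size in place of TMM, DESeq2 1.42.0, and limma 3.58.1 on log2(FPKM + 1) and log2(FPKM + 0.1). Limma took loci with at least 1 FPKM in 3 libraries. Also run were no filter, at least 50 fragments in 3 libraries, each library left out, and the replicate number as a block. A further alternative, chosen after seeing the data, left out both libraries whose level of the merged *Hoxa5* locus went against their labels.

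The members, lists and tests were chosen with earlier results of these data known. Named are the 10 members, *Hoxa5*, up to 4 genes of smallest p of each context list, loci within 250 kb of a called member and the 5 loci most like each. *Otx2*, *Wnt1*, *Fgf17* and the marker genes given with values were named after their values were seen. 1 gene of the Purkinje list is not reported here and was left out of the list's counts, median and sums. The models were tested on simulated data.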

Additional observations from a re-analysis of the deposited data

How the results depend on the processing

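The falls of *Cnpy1* and *En2* kept their direction under all 14 alternatives and their call under 12. The exceptions were limma on log2(FPKM + 1), with -1.57 for *Cnpy1* (adjusted p = 0.318) and -0.87 for *En2* (adjusted p = 0.358), and on log2(FPKM + 0.1), with -1.81 (0.346) and -1.06 (0.377). Under both, 0 boundary genes were called, as were 0 and 1 loci lower and 0 and 0 higher of all tested, so the loss of the call was general there. Over all alternatives the adjusted p ranged from 1.93e-10 to 0.346 for *Cnpy1* and from 5.94e-06 to 0.377 for *En2*. With a library left out (an arm of 2 libraries shares the spread edgeR pools) the log2 fold change ranged from -2.04 to -1.45 for *Cnpy1*, -1.26 to -0.89 for *En2*, 0.10 to 0.40 for *En1*, -0.54 to -0.33 for *Pax3* and 0.35 to 0.56 for *Gbx2*. The sign turned for *Pax2* (-0.10 to 0.23), *Pax5* (-0.066 to 0.26), *Pax7* (-0.45 to 0.22) and *Pax8* (-0.091 to 0.28), none of them called. The ratios moved over -1.42 to -1.12 (*En2* to *En1*) and -0.88 to -0.56 (*Cnpy1* to *En2*).

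Over all loci, calls ranged from 42 (without control replicate 1) to 126 lower and from 0 to 15 higher with a library left out. They came to 194 lower and 27 higher with no filter, to 3 higher with DESeq2, to 1 higher with at least 50 fragments in 3 libraries, and to 140 lower and 21 higher without control replicate 3 and cKO replicate 1, which put *Pax7* at 0.33 (adjusted p = 0.748). The cause was not tested. Same-numbered libraries did not deviate together (correlations over loci of 0.03, -0.08 and 0.05). With the replicate number as a block, 122 loci were called lower and 8 higher, *Cnpy1* had -1.80, *En2* -1.06 and *Pax7* -0.017, and not every library correlated best with its own number. Depth limits *Gbx2*, *Pax3* and *Pax5* most.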
